A study of Homo sapiens with 32 samples.

Results

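The comparison set NAT10(-) Hep3B cells against FKBP Hep3B cells, and so asked what separates 2 genotypes that were both depleted of NAT10 and carry no added copy of it. Hep3B is a human hepatocellular carcinoma line. Members were chosen by the genotype in the library titles: 8 of the 32 libraries, with 2 replicates of each genotype in a mock and in a sodium cyanoborohydride (NaCNBH3) fraction. NAT10(-) cells carried the FKBP12 degron tag on endogenous NAT10, were transduced for 24 h with a control plasmid and then kept for 5 days in 5 µg/ml blasticidin. FKBP cells carried the same tag and were not transduced. Both genotypes received 100 nM dTAGV1, which degrades the tagged protein, for 24 h. The plasmid, the transduction and the blasticidin selection therefore come together in NAT10(-) and cannot be told apart. The tagged cells were a population selected with antibiotics for integration of the tag, and NAT10(-) replicates were independent transductions. The study's methods describe replicates of its cell experiments as biological and made on separate days, but give no further detail for the FKBP libraries. The replicate number is also the batch in the labels, and the libraries were compared in 2 pairs of equal number.

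NAT10 is the enzyme that acetylates cytidine to N4-acetylcytidine (ac4C) in RNA, with the helper THUMPD1 on tRNA and with small nucleolar RNAs on 18S rRNA. NaCNBH3 in acid reduces ac4C, and the reduced base is read as T by reverse transcriptase, so ac4C shows as a C>T mismatch that is present with NaCNBH3 and absent with acid alone (mock). Other modified bases, such as N1-methyladenosine at A58 of tRNA and A9 of mitochondrial tRNA, cause mismatches by themselves, and these are seen in both fractions. Mock and NaCNBH3 libraries of a genotype and replicate came from the same RNA, so a difference seen in both is not 2 independent observations.

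Each library gave A, T, C and G counts at positions with at least 30 reads. It held 535384 to 2047586 such positions, with a median depth of 50 to 112 reads. The number of positions was lower in NAT10(-) than in FKBP in every pair: 599203 and 1036338 positions in NAT10(-) mock replicates 1 and 2, against 955592 and 1864179 in FKBP mock. All 8 libraries shared 480114 positions, which is 89.7% of the smallest library. Depth stopped near a ceiling, and 35024 of the shared positions (7.29%) had over 19000 reads in some library, so the abundance of rRNA and of the strongest small RNAs was not measurable. NAT10 itself, THUMPD1 and TSR3 had 0 exonic positions with 30 reads in any of the 8 libraries, so loss of NAT10 RNA or its return could not be checked from these files. ALB, APOA2, AHSG and SERPINA1, transcripts of liver cells, were covered in all 8 libraries.

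The sites below carry the results on ac4C. The first pair are the 2 ac4C sites of 18S rRNA, and the second pair are tRNA genes whose C12, in the D arm of leucine and serine tRNAs, differed between the genotypes. Sequences are from hg38, read 5′ to 3′ as the RNA runs, and the capital marks the cytidine measured. C1337 was read at chr12:20551473-20551493 (plus strand), an 18S copy inside an intron of PDE3A that held the most reads of the identical copies, and C1842 at GL000220.1:110909-110929 (plus strand). TRL-TAG3-1 is at chr16:22195711-22195792 (minus strand) and TRS-GCT4-1 at chr6:28597340-28597421 (minus strand).
18S rRNA C1337: ggtgcatggcCgttcttagtt
18S rRNA C1842: acaaggtttcCgtaggtgaac
TRL-TAG3-1: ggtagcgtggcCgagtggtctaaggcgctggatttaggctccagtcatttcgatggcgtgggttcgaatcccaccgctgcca
TRS-GCT4-1: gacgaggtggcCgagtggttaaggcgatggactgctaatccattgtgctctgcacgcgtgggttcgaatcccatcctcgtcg

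Both genotypes held a low residual C>T share at the 18S sites, and the sites differed in opposite directions. With NaCNBH3 the C>T share of C1337 was 12.7% and 12.8% in NAT10(-) replicates 1 and 2, against 10.8% and 11.3% in FKBP. Exact 95% binomial (Clopper-Pearson) intervals were 12.2 to 13.1% and 12.3 to 13.3% in NAT10(-), against 10.3 to 11.2% and 10.9 to 11.8% in FKBP, and these cover counting error only. For scale, the share was 66.8% and 73.4% in NAT10-WT cells, which had NAT10 added back, and 76.9% and 92.5% in Wildtype cells. The 2 genotypes did not overlap at C1337, and NAT10(-) was higher in both pairs, by 1.68 points on average. With identical copies of the position summed, the mean difference was 0.739 points. Fisher's exact test (two-sided) within each pair gave adjusted p = 1.3e-07 and 0.000122. limma, which measures against the spread between replicates, gave a log2 odds ratio of 0.23 and an adjusted p of 0.88. In mock the share was 0.312% and 0.192% in NAT10(-), against 0.235% and 0.227% in FKBP.

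C1842, near the 3′ end of 18S rRNA, went the other way. With NaCNBH3 its C>T share was 3.22% and 5.65% in NAT10(-), against 6.20% and 8.57% in FKBP. NAT10(-) was lower in both pairs, but NAT10(-) replicate 2 and FKBP replicate 1 were within 1 point of each other and their intervals met, at 5.10 to 6.23% in NAT10(-) replicate 2 and 5.36 to 7.12% in FKBP replicate 1. Fisher's exact test gave adjusted p = 5.21e-08 and 4.88e-08, and limma a log2 odds ratio of -0.82 with an adjusted p of 0.637. NAT10-WT cells had 54.4% and 68.7% here, and Wildtype cells 72.6% and 90.0%. Within a genotype the replicates differed by 2.42 points in NAT10(-) and by 2.37 points in FKBP, about as much as the genotypes did within a pair.

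At the other NAT10-dependent sites outside tRNA, both genotypes were at or near 0 with NaCNBH3. The ac4C site C31 of the C/D box RNA SNORD126 read 0% and 0.152% in NAT10(-), against 0.210% and 0.197% in FKBP, and 14.2% and 14.7% in NAT10-WT. The count of 0 there allows a share of up to 0.777%. C31 of SNORD18B read 0.418% and 0.159% in NAT10(-), against 0% in both FKBP libraries (0.420% and 0.482% allowed), and 6.13% and 6.68% in NAT10-WT. These SNORD18B shares rest on 3 and 2 reads. C34 of SNORD87 read 0.144% and 0.0875% in NAT10(-), against 0.0595% and 0.0659% in FKBP, and 11.5% and 11.1% in NAT10-WT. C2278 of the 5′ external transcribed spacer, which is cut from the rRNA precursor, read 0.0508% and 0.167% in NAT10(-), against 0.0456% and 0.115% in FKBP, and 2.23% and 3.00% in NAT10-WT. C1317 of 18S rRNA read 0.130% and 0.120% in NAT10(-), against 0.0802% and 0.115% in FKBP. All of these shares lay under 1% in NAT10(-) and FKBP, the minimum for a test, so none was tested. U1248 of 18S rRNA, which carries a hypermodified pseudouridine whose mismatch does not need NaCNBH3, read 19.6% and 19% in NAT10(-), against 20.6% and 19.9% in FKBP, and 21.6% and 21.4% in NAT10-WT. C34 of mitochondrial tRNA-Met, a formylcytidine that also reacts with NaCNBH3, served as a control for the chemistry: it read 52.1% and 52.0% in NAT10(-), against 54.5% and 51.6% in FKBP.

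**Figure D1:**
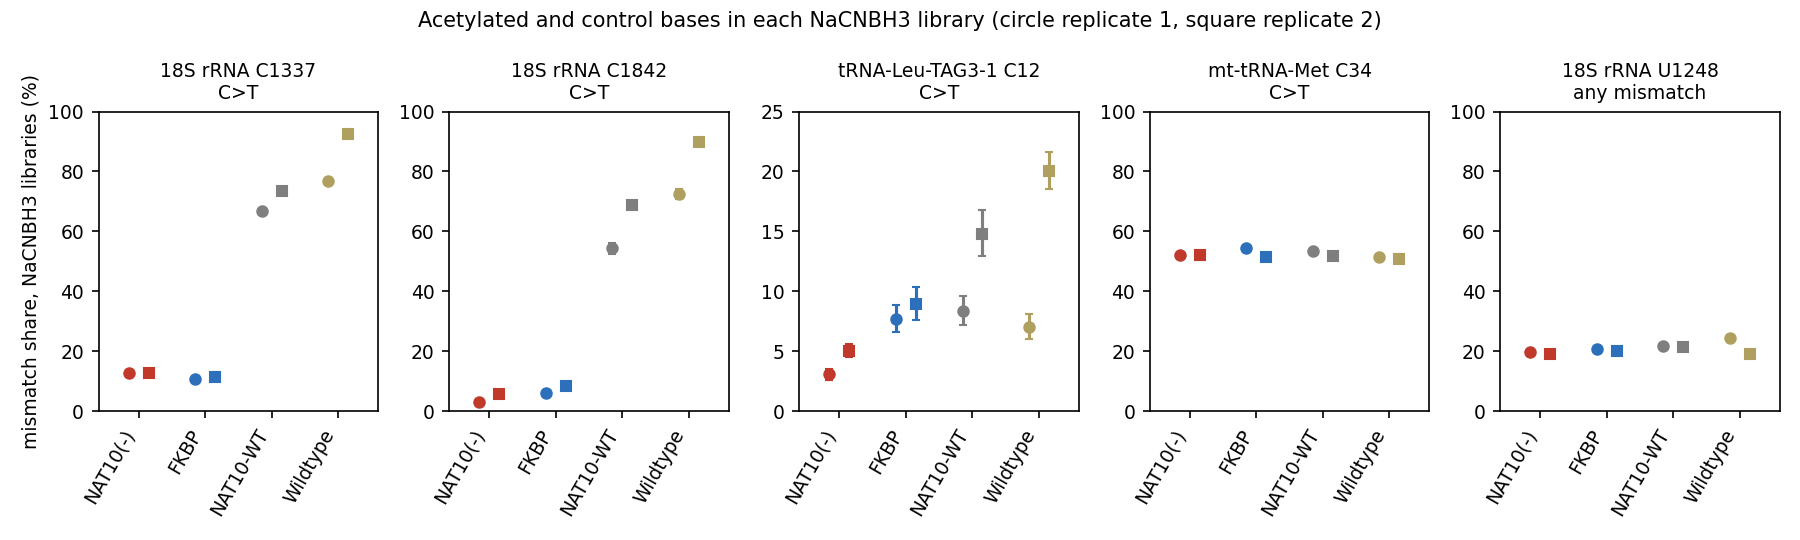
Mismatch share (%, y axis) at the known ac4C sites and the control positions in NaCNBH3 libraries of NAT10(-), FKBP and, for scale, the genotypes with NAT10. Points are single libraries with exact 95% binomial intervals. NAT10(-) lies above FKBP at C1337 (12.7% and 12.8% against 10.8% and 11.3%) and below it within each pair at C1842.

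C12 of leucine and serine tRNA genes was lower in NAT10(-) more often than higher. Over 28 distinct tRNA sequences with 30 reads in these libraries (14 leucine and 14 serine), the NaCNBH3 C>T share of NAT10(-) was below that of FKBP in both pairs at 12 and above it in both pairs at 2. In mock, 4 were below and 1 above. Summed over the 28, C12 read 0.962% and 1.51% in NAT10(-), against 1.67% and 2.11% in FKBP. Leucine tRNAs read 1.20% and 1.87% in NAT10(-), against 1.95% and 2.57% in FKBP. Serine tRNAs read 0.444% and 0.472% in NAT10(-), against 0.959% and 0.759% in FKBP. These sums weight deep genes. The median over the 28 did not hold its direction, at 0.304% and 0.398% in NAT10(-), against 0.576% and 0.296% in FKBP. Nor did the median over serine tRNAs, at 0.290% and 0.398% in NAT10(-), against 0.615% and 0.143% in FKBP. The median over leucine tRNAs was lower in NAT10(-) in both pairs, at 0.313% and 0.417%, against 0.512% and 0.614% in FKBP. Summed over the 28, NAT10-WT cells gave 2.31% and 4.68%, and Wildtype cells 1.76% and 5.40%. The 2 replicates of these genotypes thus lay further apart than NAT10(-) did from FKBP in these sums.

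Among single tRNA genes, TRL-TAG3-1 (leucine) read 3.07% and 5.04% at C12 with NaCNBH3 in NAT10(-), against 7.67% and 8.95% in FKBP. The groups did not overlap, and Fisher's exact test gave adjusted p = 9.11e-16 and 1.11e-07, while limma gave a log2 odds ratio of -1.14 and an adjusted p of 0.525. NAT10-WT cells read 8.35% and 14.8% at the same base, and Wildtype cells 7.01% and 20.1%. TRS-GCT4-1 (serine) read 0.919% and 0.780% in NAT10(-), against 5.15% and 5.47% in FKBP, with adjusted p = 0.00279 and 0.0159 (Fisher's exact test) and 0.336 (limma). A copy of the same tRNA sequence with more reads, TRS-GCT4-3, read 0.582% and 0.690% in NAT10(-), against 2.32% and 2.46% in FKBP. TRL-TAG2-1 read 4.17% and 5.50% in NAT10(-), against 6.72% and 8.71% in FKBP, and TRL-TAG1-1 read 2.33% and 3.70% in NAT10(-), against 4.40% and 5.47% in FKBP. TRS-AGA4-1 had the widest gap by share, with 2.42% and 3.29% in NAT10(-) and 13% and 10% in FKBP, on 124 and 152 reads in NAT10(-) and 92 and 60 in FKBP.

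Across the transcriptome, few positions differed between the genotypes in both pairs, and the counts were alike with and without NaCNBH3. A position was tested where a mismatch reached 1% and 5 reads in some library, and was called when Fisher's exact test passed an adjusted p of 0.05 in both pairs in the same direction. Of 345 C>T positions tested in mock, 12 were called higher in NAT10(-) (3.48%) and 4 lower (1.16%), or 4.64% in either direction. Of 401 tested with NaCNBH3, 6 were called higher (1.5%) and 10 lower (2.49%), or 3.99% in all. Other mismatches were called at 94 of 1575 positions in mock (5.97%), 36 higher (2.29%) and 58 lower (3.68%). With NaCNBH3 they were called at 106 of 1597 positions (6.64%), 35 higher (2.19%) and 71 lower (4.45%). Of the called C>T positions 8 were shared by both treatments (50% of each), and of the others 66 were shared (70.2% of those in mock and 62.3% of those with NaCNBH3), every one in the same direction. Fisher's test counts reads and takes no account of the spread between replicates. With limma on log2 odds, 0 of 1920 positions in mock (0%), 0 of 1998 with NaCNBH3 (0%) and 0 of 2127 in the interaction of genotype with NaCNBH3 (0%) passed, with 164, 184 and 114 positions at an unadjusted p under 0.05. The median size of the difference between genotypes was 0.88 points in mock and 0.90 points with NaCNBH3, against 0.95 and 0.94 points between replicates. Both genotypes were treated to deplete NAT10 and carried no added copy, so these counts serve as a background of differences between genotypes, although equal loss of NAT10 could not be checked and NaCNBH3-dependent sites such as C1842 differed between them.

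Most called positions lay in tRNA genes. In mock, 70 of the 110 called positions were tRNA positions, and with NaCNBH3 74 of 122. Of the tested tRNA positions, 11.1% were called in mock and 11.5% with NaCNBH3, against 5.73% and 6.11% of all tested positions. Counted once for each identical tRNA sequence, 26 were higher and 44 lower in NAT10(-) of 540 tested in mock, and 19 higher and 54 lower of 551 with NaCNBH3. Exons of nuclear mRNAs gave 2 higher and 1 lower of 211 in mock, and 1 higher and 2 lower of 213 with NaCNBH3. Histone mRNAs and mitochondrial mRNAs gave 0 in either treatment. By kind, A>T had the most lower calls in each treatment, with 1 position higher and 27 lower of 156 in mock and 1 higher and 29 lower of 174 with NaCNBH3.

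These tRNA genes are printed because they held called differences at bases that can be modified, and the capital marks the base measured. In the first 3 it is A58 in the T loop, where TRMT6 and TRMT61A place N1-methyladenosine. In the last 2 it is C32 in the anticodon loop, which can carry 3-methylcytidine. In hg38, TRNAV-CAC lies at chr1:145157157-145157229 (plus strand), TRF-GAA2-1 at chr11:59566380-59566452 (minus strand), TRI-TAT2-1 at chr2:42810536-42810628 (plus strand, with its intron), TRT-AGT1-1 at chr17:8187160-8187233 (plus strand) and TRR-CCT1-1 at chr17:75033906-75033978 (plus strand).
TRNAV-CAC: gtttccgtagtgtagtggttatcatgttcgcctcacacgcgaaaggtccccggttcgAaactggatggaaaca
TRF-GAA2-1: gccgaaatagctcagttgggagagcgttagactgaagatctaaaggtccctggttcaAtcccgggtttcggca
TRI-TAT2-1: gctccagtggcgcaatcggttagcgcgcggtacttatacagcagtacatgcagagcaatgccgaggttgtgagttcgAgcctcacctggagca
TRT-AGT1-1: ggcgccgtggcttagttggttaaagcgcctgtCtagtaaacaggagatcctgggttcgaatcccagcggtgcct
TRR-CCT1-1: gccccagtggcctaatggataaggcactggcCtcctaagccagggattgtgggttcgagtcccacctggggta

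A58 of cytosolic tRNA accounted for a large part of the lower calls. The groups of positions in this and the next 2 paragraphs were chosen after their values were seen, so their counts describe the calls and are no separate test. Of 124 A58 mismatch positions (A>G or A>T), 32 were called lower in NAT10(-) and 3 higher in mock, and 35 lower and 3 higher with NaCNBH3. All other tested positions outside the groups of this and the next paragraphs gave 27 lower and 45 higher of 1783 in mock (1.51% and 2.52%), and 41 lower and 38 higher of 1861 with NaCNBH3. NAT10(-) was below FKBP in both pairs at 77 of the 124 A58 positions and above at 15 in mock, and below at 79 and above at 14 with NaCNBH3. The median A58 mismatch share was 52.8% and 51.7% in NAT10(-) mock, against 56.9% and 55.4% in FKBP mock. With NaCNBH3 it was 53.9% and 53% in NAT10(-), against 58.7% and 57.1% in FKBP. The lowest limma adjusted p at A58 was 0.296 in mock and 0.336 with NaCNBH3. Alanine tRNAs (TRA) had 7 of 15 A58 positions called lower in each treatment and 0 higher, with a median difference of -7.27 points in mock and -7.56 points with NaCNBH3. Glutamine tRNAs (TRQ) had 0 of 6 called.

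The widest A58 gap was in TRNAV-CAC, a valine tRNA gene of variant sequence. Its A>G share was 17.1% and 20.2% in NAT10(-) mock, against 66.6% and 63.2% in FKBP mock, a mean difference of -46.3 points. With NaCNBH3 it was 18.5% and 20.6% in NAT10(-), against 64.1% and 63.5% in FKBP. TRF-GAA2-1 (phenylalanine) had an A>T share of 42.6% and 42.5% in NAT10(-) mock, against 72.3% and 70.4% in FKBP mock. In TRI-TAT2-1 (isoleucine) the share was 33.2% and 34.3% in NAT10(-) mock, against 52.9% and 54.3% in FKBP mock. In these 3 genes the gap between the genotypes was several times the difference between replicates. The 3 positions called higher lay in TRL-TAG1-1, TRE-TTC1-1 and TRS-AGA2-1, in both treatments.

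**Figure D2:**
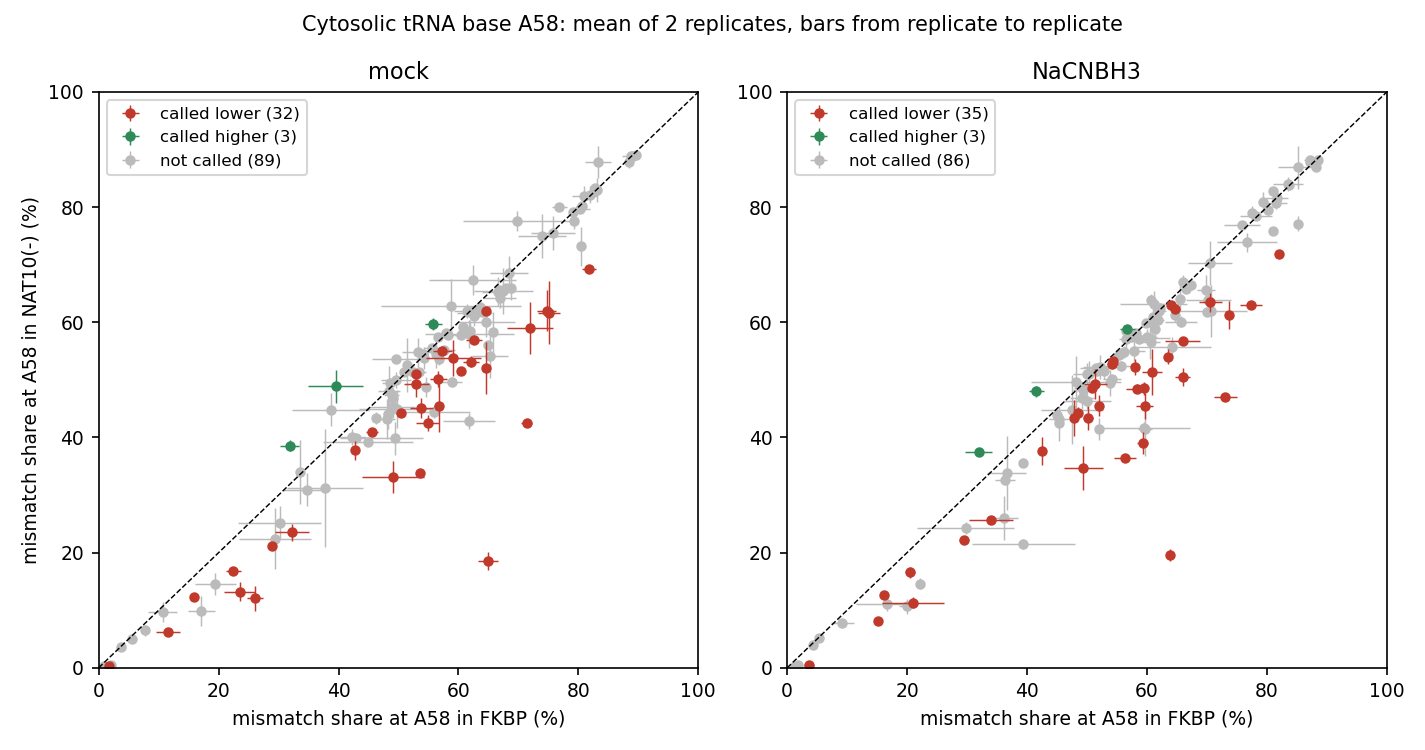
Mean mismatch share (%) at A58 of cytosolic tRNA genes in NAT10(-) set against FKBP, for mock and NaCNBH3 libraries. Each point is the mean of 2 replicates at a tRNA position, bars run from replicate to replicate, and the line marks equal shares. More of the 124 positions lie on the FKBP side of the line (77 below in both pairs in mock, 15 above), with TRNAV-CAC farthest from it.

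Calls at methyladenosine positions of mitochondrial RNA also ran lower in NAT10(-), and calls at C32 mostly higher. Of 12 tested A9 positions of mitochondrial tRNA, 2 were called lower in mock and 4 with NaCNBH3, and 0 higher. NAT10(-) was below FKBP in both pairs at 8 and above at 1 in mock, and below at 11 and above at 1 with NaCNBH3. MT-TL2, a mitochondrial leucine tRNA, read 56.4% and 52.1% A>T at A9 in NAT10(-) mock, against 70.7% and 62.3% in FKBP mock. MT-TF (phenylalanine) read 28.5% and 22.3% in NAT10(-) mock, against 38.3% and 26.3% in FKBP mock, where NAT10(-) replicate 1 exceeded FKBP replicate 2. A947 of mitochondrial 16S rRNA read 79.1% and 77.2% in NAT10(-) mock, against 82.9% and 79.1% in FKBP mock. N1-methyladenosine at A1322 of 28S rRNA read 92.9% and 93.2% in NAT10(-) mock, against 93.2% and 91.7% in FKBP mock, and was not called. Of 23 C32 positions, 6 were called higher and 1 lower in mock, and 2 higher and 1 lower with NaCNBH3. TRT-AGT1-1 (threonine) read 24.6% and 14.3% C>T in NAT10(-) mock, against 13.8% and 4.13% in FKBP mock, and TRT-AGT6-1 read 38.0% and 23.8% in NAT10(-), against 23.7% and 11.2% in FKBP. TRR-CCT1-1 (arginine) was the C32 position called lower, with 26.1% and 19.1% in NAT10(-) mock and 32.2% and 29.7% in FKBP mock. Calls at G26, the dimethylguanosine position of tRNA, were 4 higher and 2 lower of 56 in mock and 4 higher and 6 lower of 59 with NaCNBH3. At A34, where deamination to inosine is read as A>G, 3 were higher and 2 lower of 19 in mock, and 2 higher and 5 lower with NaCNBH3.

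Outside tRNA, small RNAs and a few mRNA positions stood out, and 3 are shown with the base measured in capitals: RMRP at chr9:35657831-35657851 (minus strand), HNRNPA1 at chr12:54282203-54282223 (plus strand) and RPL37A at chr2:216498864-216498884 (plus strand), all hg38.
RMRP: agcggcgtggCgcgggggcgt
HNRNPA1: tgaagtgattGaaatcatgac
RPL37A: gtcgcggcgaCatggtgagtg
RMRP, the RNA of the RNase MRP enzyme that cuts the rRNA precursor, had a C>T share of 7.69% and 7.87% in NAT10(-) mock, against 13.5% and 14.8% in FKBP mock, and 7.91% and 7.81% in NAT10(-) NaCNBH3, against 14.3% and 13.2% in FKBP NaCNBH3. HNRNPA1, which encodes a splicing factor, had a G>C share of 22.4% and 33.1% in NAT10(-) mock, against 4.55% and 4% in FKBP mock, on 67 to 200 reads. RPL37A, which encodes a protein of the large ribosomal subunit, had a C>T share of 1.75% and 0.780% in NAT10(-) NaCNBH3, against 8.84% and 5.72% in FKBP NaCNBH3. It was not called in mock, where the share was 3.43% and 2.04% in NAT10(-), against 7.20% and 6.62% in FKBP. APOA2, an apolipoprotein mRNA, had a C>G share of 1.55% and 1.09% in NAT10(-) mock, against 5.92% and 4.72% in FKBP mock. SCARNA5, which guides modification of spliceosomal RNA, had a G>A share of 0% and 1.16% in NAT10(-) mock, against 11.9% and 9.58% in FKBP mock, and was not called with NaCNBH3. RNU4-1 (U4 spliceosomal RNA) was called lower at 1 position in mock and 4 with NaCNBH3, such as 6.35% and 6.77% in NAT10(-) mock, against 9.03% and 9.67% in FKBP mock. Of the tested positions in small nuclear RNAs, 2 of 25 were called in mock (8%) and 6 of 26 with NaCNBH3 (23.1%). Among all tested positions 5.73% and 6.11% were called.

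Within tRNA but outside the bases above, the largest differences by the naming rule lay at scattered bases. TRY-GTA2-1 (tyrosine) had a G>C share of 34.7% and 29.6% at base 24 in NAT10(-) mock, against 9.06% and 5.42% in FKBP mock. TRN-GTT2-6 (asparagine) had a C>T share of 88.6% and 90.6% at base 65 in NAT10(-) mock, against 75.6% and 67.7% in FKBP mock. TRM-CAT6-1 (methionine) had a C>T share of 11.1% and 9.54% at base 20 in NAT10(-) mock, against 28.1% and 27.2% in FKBP mock. Copies of tRNA genes differ by single bases, and whether such mismatches come from modified bases or from reads of other copies was not tested. This was not tested for the differences at A58 and C32 either.

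The share of base calls by RNA class differed between the genotypes most for tRNA. At shared positions tRNA genes took 11.6% and 7.77% of base calls in NAT10(-) mock, against 6.46% and 4.70% in FKBP mock. With NaCNBH3 they took 10.9% and 9.46% in NAT10(-), against 7.17% and 4.80% in FKBP. NAT10(-) was 1.80 and 1.65 times FKBP in the mock pairs, and 1.52 and 1.97 times with NaCNBH3, and the groups did not overlap. The exact permutation test (two-sided) gave p = 0.333, which is the smallest that 2 against 2 libraries can give. Replication-dependent histone mRNAs took 1.02% and 1.27% in NAT10(-) mock, against 0.904% and 1.01% in FKBP mock. Nuclear mRNA exons took 4.80% and 8.08% in NAT10(-) mock, against 7.83% and 12.2% in FKBP mock, so that NAT10(-) was 0.613 and 0.662 times FKBP while the 2 replicates of a genotype differed by as much (exact permutation p = 0.667). H/ACA RNAs took 3.84% and 3.32% in NAT10(-) mock, against 5.53% and 3.68% in FKBP mock. Spliceosomal snRNAs took 5.70% and 5.54% in NAT10(-) mock and 5.79% and 5.35% in FKBP mock. Shares of 1 total are bound to each other, and less RNA of a class and a different recovery of it cannot be told apart in such libraries.

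**Figure D3:**
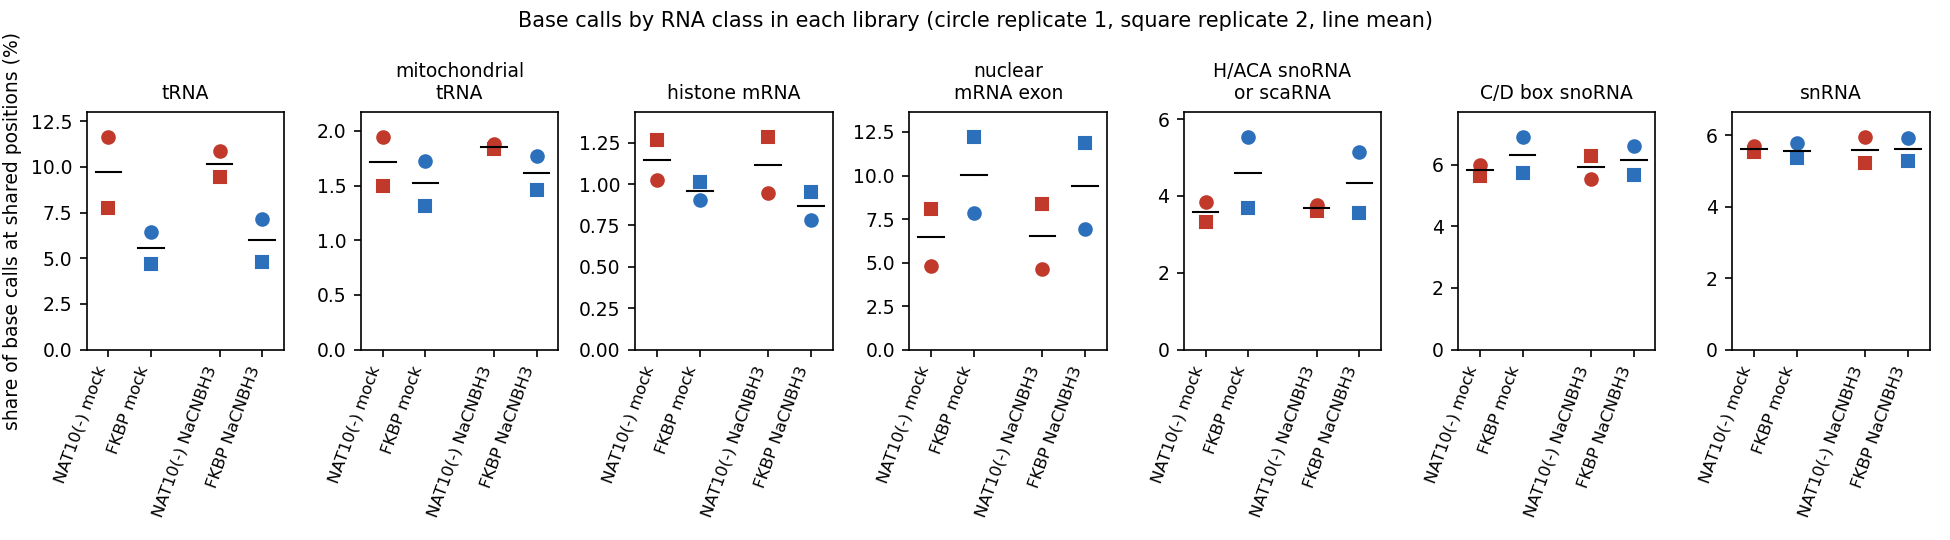
Share of base calls at the 480114 shared positions (%, y axis from 0) by RNA class for each library, NAT10(-) left of FKBP in mock and in NaCNBH3. Circles are replicate 1, squares replicate 2 and lines means. tRNA is higher in both NAT10(-) libraries of each treatment, and nuclear mRNA exons are lower within each pair.

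Gene by gene, edgeR's test passed no gene against the spread of replicates and passed many once the batch was taken into account. Depth per gene is printed as the mean number of reads over its shared positions, scaled by edgeR's size factors, for 1105 genes with at least 50 shared positions. Genes with fewer were not tested. Each shared position held at least 30 reads in every library, so fold changes of shallow genes are bounded by that floor. edgeR was run on base calls summed over those positions, so a read counted at each base it covered. edgeR's quasi-likelihood test with genotype alone called 0 genes in mock (0%) and 0 with NaCNBH3 (0%), with 114 and 111 genes at an unadjusted p under 0.05. DESeq2 with genotype alone called 123 genes in mock (90 higher, 33 lower) and 120 with NaCNBH3 (88 higher, 32 lower). With the replicate number as a block, edgeR called 173 genes higher (15.7%) and 137 lower (12.4%) in mock, and 157 higher (14.2%) and 86 lower (7.78%) with NaCNBH3. Of these, 147 were higher and 72 lower in both treatments. The balance of directions depended on the scale: with the depth scaled to all deposited base calls, the block called 122 genes higher and 269 lower in mock, and 71 higher and 14 lower with NaCNBH3. Without the 49 genes that had a position near the ceiling it called 122 higher and 39 lower in mock, and 152 higher and 90 lower with NaCNBH3. Genes are described below under the block, with the adjusted p of that fit, and in none of them did the fit without it pass. Median log2 fold changes here and of the lists below are from the fit with genotype alone, except where a single pair is named. Over all 1105 genes the median was -0.07 in mock and -0.04 with NaCNBH3.

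Cytosolic tRNA genes were the group most often higher in NAT10(-). Of 115 tested, 102 were called higher in mock and 101 with NaCNBH3, 99 in both, and 0 lower. The median log2 fold change was 1.10 in mock and 1.02 with NaCNBH3, and 107 of the 115 were higher in all 4 pairs, against 274 of all 1105 genes. Scaling to all deposited base calls in place of shared genes left 89 higher in mock and 57 with NaCNBH3. TRI-TAT1-1, an isoleucine tRNA gene, read 728 and 430 scaled reads per position in NAT10(-) mock, against 77.4 and 105 in FKBP mock (log2 fold change 2.64, edgeR adjusted p = 3.46e-26). TRR-TCT2-1 (arginine) read 602 and 296 in NAT10(-) mock, against 126 and 87.3 in FKBP mock (2.01, edgeR adjusted p = 1.86e-16). All members tested were called in both treatments for alanine (12), arginine (11), threonine (9), lysine (7) and glutamine (4) tRNAs. The same held for cysteine, aspartate and methionine (3 each) and for phenylalanine, histidine and tryptophan (1 each) tRNAs. Serine tRNAs had 8 of 10 called in mock and 9 with NaCNBH3, and leucine tRNAs 10 and 9 of 12. The median log2 fold change was 1.63 for alanine and 1.66 for threonine tRNAs in mock, against 0.83 for lysine, 0.83 for serine and 0.84 for leucine tRNAs. Reads of near-identical tRNA genes can be counted at several copies, so these genes are not independent of each other. Mitochondrial tRNAs moved less: 7 of 18 were called higher in mock and 6 with NaCNBH3, with medians of 0.47 and 0.37. Scaled to all base calls, 3 were higher in mock and 0 with NaCNBH3. MT-TP (proline) read 1686 and 681 in NAT10(-) mock, against 685 and 473 in FKBP mock.

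**Figure D4:**
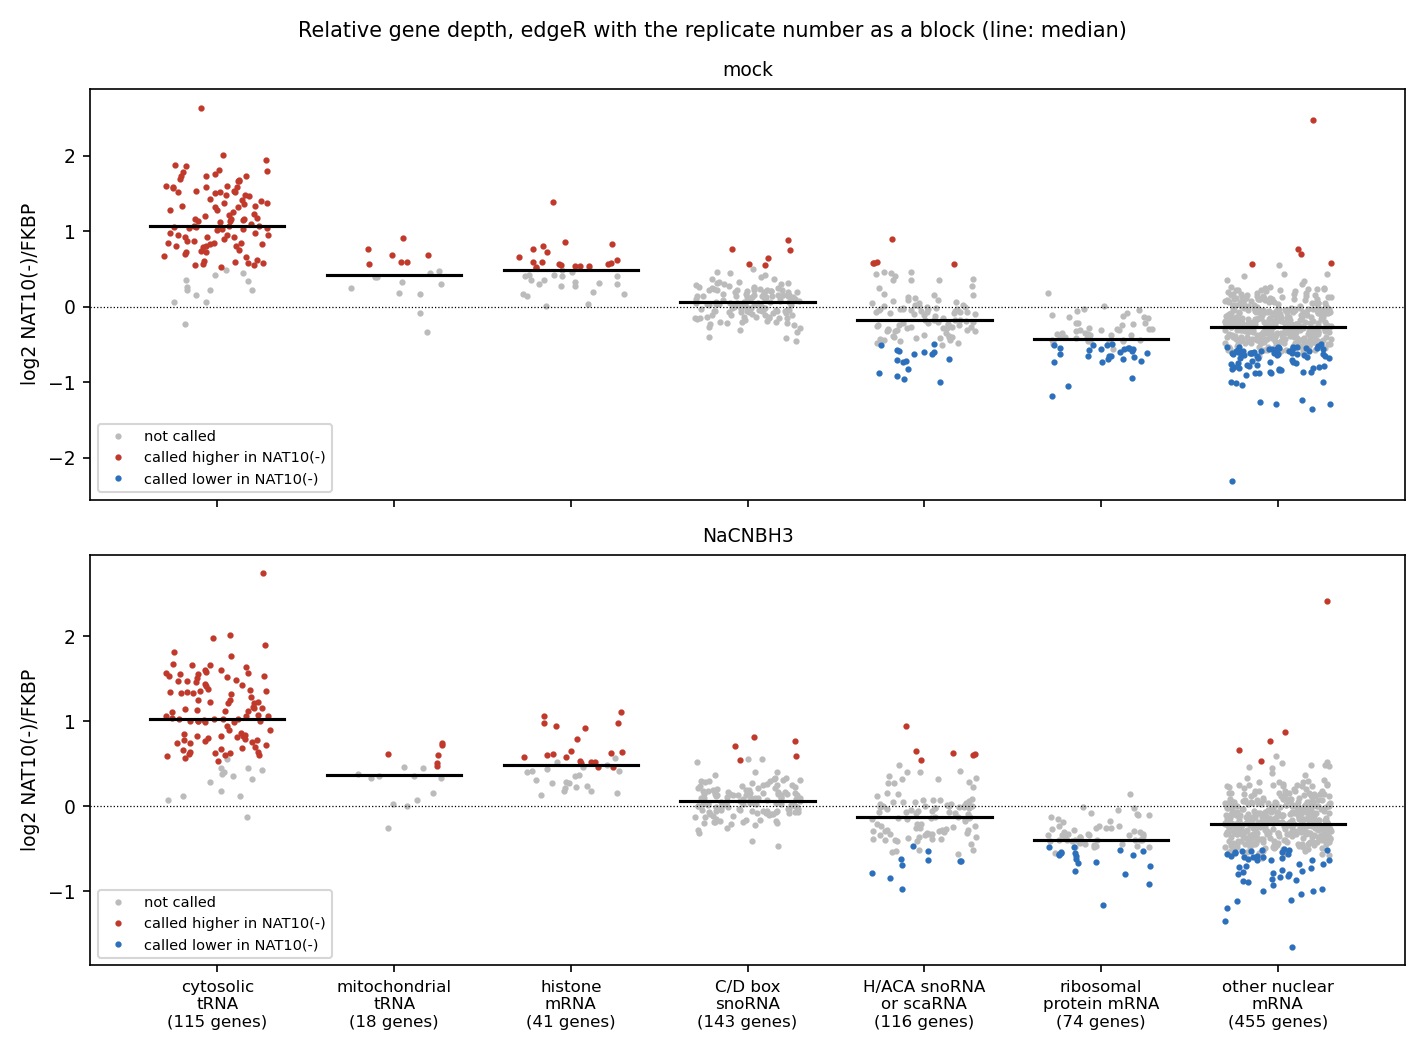
log2 fold change of depth (NAT10(-) over FKBP, edgeR with the replicate block) for each gene of the lists, in mock and NaCNBH3. Points are genes, marked where the adjusted p was under 0.05. Cytosolic tRNA genes, histone and mitochondrial tRNA genes lie mostly above 0, and ribosomal protein mRNAs mostly below.

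Histone mRNAs were also higher in NAT10(-). Of 41 replication-dependent histone genes, whose mRNAs accumulate in S phase and lack a poly(A) tail, 19 were called higher in mock and 20 with NaCNBH3, 16 in both, and 0 lower. The median log2 fold change was 0.47 in both treatments, and 37 of 41 were higher in all 4 pairs, against 274 of all 1105 genes. H3C1 read 117 and 97.1 scaled reads per position in NAT10(-) mock, against 42.7 and 38.5 in FKBP mock (log2 fold change 1.39, edgeR adjusted p = 1.14e-07). With all base calls as the scale, 6 were higher in mock and 2 with NaCNBH3. IGF2, a fetal growth factor made by hepatoma cells, was the mRNA with the largest increase. It read 392.01 and 421 in NAT10(-) mock, against 37.6 and 143 in FKBP mock (2.47, edgeR adjusted p = 2.1e-24), and 421 and 394 in NAT10(-) NaCNBH3, against 37.3 and 155 in FKBP NaCNBH3. The NAT10(-) libraries agree closely while the FKBP replicates lie far apart, and the groups do not overlap.

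Nuclear mRNAs were mostly lower in NAT10(-). Of 529 tested, 5 were called higher and 110 lower in mock, and 5 higher and 68 lower with NaCNBH3, with median log2 fold changes of -0.32 and -0.25. With all base calls as the scale, 215 were lower in mock but 9 with NaCNBH3, and 2 and 1 higher. Ribosomal protein mRNAs had 0 higher and 27 lower of 74 in mock and 0 higher and 19 lower with NaCNBH3, and 65 of the 74 were lower in all 4 pairs. The 455 other nuclear mRNAs had 5 higher and 83 lower in mock and 5 higher and 49 lower with NaCNBH3. Of these 455, 220 were lower in all 4 pairs. With all base calls as the scale, 47 of the 74 were lower in mock and 0 with NaCNBH3. RPL7 read 75.0 and 291 in NAT10(-) mock, against 224 and 416 in FKBP mock (log2 fold change -1.05, edgeR adjusted p = 1.9e-05). The replicates of a genotype lie far apart here, and the groups overlap. LYZ, which encodes lysozyme, had the largest decrease by the mean of both treatments, with 37.3 and 60.8 in NAT10(-) mock against 188 and 296 in FKBP mock (-2.31, edgeR adjusted p = 1.54e-20). DDT, a homologue of the cytokine MIF, read 47.3 and 51.0 in NAT10(-) mock, against 109 and 132 in FKBP mock, with no overlap. Of ER and heat shock chaperones, 2 of 7 were called lower in each treatment, against 110 of the 529 nuclear mRNAs in mock and 68 with NaCNBH3. HSPD1, the mitochondrial chaperonin, read 39.3 and 106 in NAT10(-) mock, against 100 and 169 in FKBP mock, and the groups overlap. CALR, the ER lectin calreticulin, read 85.9 and 115 in NAT10(-) mock, against 146 and 227 in FKBP mock. Scaled to all base calls, 3 of the 7 were lower in mock and 0 with NaCNBH3. P4HB, a disulfide isomerase of the ER outside that list, read 56.9 and 72.5 in NAT10(-) mock, against 99.2 and 165 in FKBP mock.

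Liver transcripts had calls in both directions and differed between the pairs. Of 25 listed secreted liver proteins 16 were measured, and 2 were called higher and 5 lower in mock, 2 higher and 6 lower with NaCNBH3. With all base calls as the scale, 0 were higher in either treatment, and 6 were lower in mock and 3 with NaCNBH3. Their median log2 fold change in mock was near 0 in pair 1 and -0.75 in pair 2. ALB, which encodes albumin, read 359 and 1405 in NAT10(-) mock, against 831 and 3370 in FKBP mock (log2 fold change -1.24, edgeR adjusted p = 1.15e-12). APOB read 46.3 and 164 in NAT10(-) mock, against 106 and 472 in FKBP mock. For ALB and APOB in mock the groups overlap, and replicates of a genotype lie further apart than the genotypes within a pair. APOA1, the main protein of high-density lipoprotein, was called higher mainly on pair 1. It read 200 and 201 in NAT10(-) mock, against 74.3 and 207 in FKBP mock (0.69, edgeR adjusted p = 0.00736). Its edgeR adjusted p was 0.0731 in mock and 0.537 with NaCNBH3 when scaled to all base calls. GC, the vitamin D-binding protein, read 55.3 and 144 in NAT10(-) mock, against 168 and 281 in FKBP mock.

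**Figure D5:**
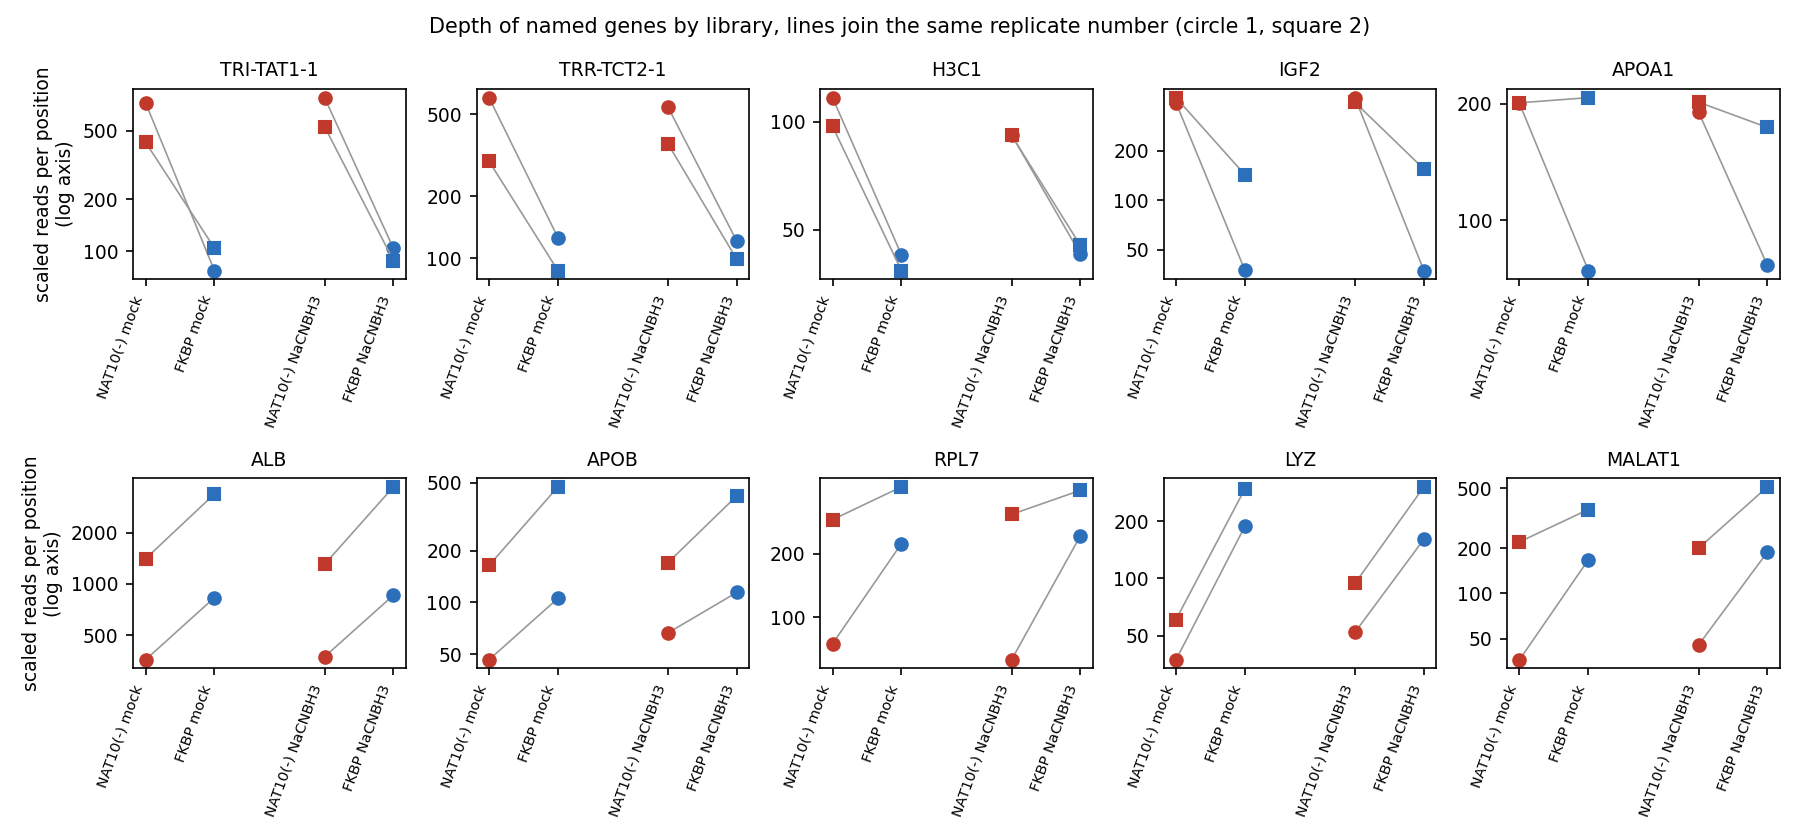
Scaled reads per position (log axis) in each of the 8 libraries for named genes, NAT10(-) left of FKBP in each treatment. Circles are replicate 1 and squares replicate 2. TRI-TAT1-1, IGF2 and H3C1 are higher in NAT10(-) with no overlap, LYZ is lower, and APOA1 and RPL7 overlap. In mock the groups also overlap for ALB, APOB and MALAT1.

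Among nucleolar and nuclear small RNAs, H/ACA RNAs were called lower about as often as all genes, and C/D box RNAs higher less often than all genes. Of all 1105 genes, 15.7% were called higher and 12.4% lower in mock, and 14.2% and 7.78% with NaCNBH3. H/ACA RNAs and scaRNAs, which guide pseudouridylation, had 5 of 116 called higher and 17 lower in mock, and 6 higher and 10 lower with NaCNBH3. With all base calls as the scale they had 1 higher and 35 lower in mock, and 0 higher and 1 lower with NaCNBH3. SNORA71A read 359 and 275 in NAT10(-) mock, against 696 and 503 in FKBP mock (log2 fold change -0.91, edgeR adjusted p = 7.73e-05), while SNORA40 read 493 and 432 in NAT10(-), against 277 and 221 in FKBP (0.90, edgeR adjusted p = 0.000172). C/D box RNAs, which guide ribose methylation, had 6 of 143 called higher and 0 lower in mock, and 5 higher and 0 lower with NaCNBH3, but 3 higher and 3 lower in mock and 0 called with NaCNBH3 when scaled to all base calls. RNU7-1, the U7 RNA that processes the 3′ ends of histone mRNAs, read 746 and 388.8 in NAT10(-) mock, against 327 and 253 in FKBP mock (0.90, edgeR adjusted p = 0.000258). MALAT1, a nuclear long noncoding RNA, read 36.2 and 220 in NAT10(-) mock, against 167 and 361 in FKBP mock (-1.46, edgeR adjusted p = 6.52e-09), and the groups overlap. MT-ND6, the mRNA of the light strand of mitochondrial DNA, read 100 and 198 in NAT10(-) mock, against 263 and 406 in FKBP mock, while of 13 mitochondrial mRNAs 1 was called higher and 2 lower in mock and 0 higher and 1 lower with NaCNBH3.

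Lists of stress and signalling genes were mostly too shallow to read. Of 22 interferon-stimulated genes 2 were measured and 0 called. Of 17 genes of the amino acid response 1 was measured and 0 called, and of 12 p53 targets 0 were measured, so none of these lists can show whether transduction or selection changed its pathway. Of 13 glycolytic genes 9 were measured, with 0 higher and 1 lower in mock (5 lower with all base calls as the scale) and 0 called with NaCNBH3. Of 15 genes of cholesterol and fatty acid synthesis 5 were measured, with 2 lower in mock and 1 with NaCNBH3. Of 21 ribosome biogenesis genes 4 were measured, and 1, NPM1, was lower in both treatments, with 46.9 and 175 in NAT10(-) mock against 139 and 340 in FKBP mock. The groups overlap for NPM1 in mock.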

How the data were processed

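The authors removed adapters, deduplicated reads by molecular identifier, aligned to GRCh38 and deposited raw base counts per position and strand at positions with 30 or more reads. Tools named by the submitters were, in their notes on processing, STAR 2.7.9a (alignment), cutadapt 4.2, SAMtools 1.6 and UMI-tools 1.1.5. The deposited counts carry no normalization. The reference base equalled hg38 at 100% of positions. Reads of repeated genes can be counted at each copy. Positions with identical 31-base windows were therefore counted once (348205 of 480114), at the copy with the most reads, and the sum over copies is the alternative. Libraries were grouped by genotype and treatment in the labels.

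Mismatch shares were tested with Fisher's exact test in each pair and with limma 3.58.1 on log2 odds (0.5 added). Gene depth was tested with edgeR 4.0.16 (quasi-likelihood) on base calls summed over a gene's shared positions. A read counts at each base it covers, so this sum is not a count of reads per gene. All p-values were adjusted by Benjamini-Hochberg over everything tested. The fits held genotype alone, with the block as an alternative. In the labels the replicate number is also the batch, so it pairs the samples. Replicate deviations of the genotypes correlated at 0.314 and 0.348 (log2 odds) and at 0.768 and 0.719 (gene depth) in mock and NaCNBH3. On simulated depth of 1105 genes the blocked fit recovered 97 of 100 genes changed 2-fold in mock with 5 false calls, and the fit without it 23 with 0. The simulation gave both genotypes the same replicate effect, which favours the block. It therefore cannot show how reliable the blocked calls are in the real libraries.

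Named positions were the known sites and, in each treatment, up to 10 called C>T and 10 other positions with the largest mean difference. Named genes were up to 12 in each direction passing in both treatments and up to 4 of each list by size. As no gene passed without the block, the rule was applied to the blocked fit. The members, sites and lists were chosen with earlier results of these data known. Alternatives were 100 reads, a share of 0.1%, every locus, DESeq2 1.42.0, limma on depth, other scaling, and leaving out libraries. Other genotypes were used for scale only.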

Additional observations from a re-analysis of the deposited data

How the results depend on the processing

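Counts of positions called by Fisher's exact test stayed within 1.5 times with a minimum of 100 reads or of 0.1%. Without either replicate pair, a call needs 1 pair alone, and C>T calls ranged from 33 to 35 in mock and from 36 to 40 with NaCNBH3, and other mismatches from 202 to 219 and from 192 to 246. Counting every genomic locus gave 38 and 40 C>T positions and 220 and 243 others, since copies are counted again. limma over all 16 libraries of a treatment called 6 positions in mock, among them HNRNPA1, SCARNA5 and MT-TH, and 2 with NaCNBH3. With identical copies summed, the NaCNBH3 difference of NAT10(-) from FKBP was 0.739 points at C1337, -2.80 at C1842, -0.0099 at C1317 and -1.21 at U1248, each in points. With positions near the ceiling left out, the mean log2 ratio of the tRNA share in mock was 0.90.

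For gene depth the replicate block called 310 genes in mock and 243 with NaCNBH3, where the fit without it called 0. It raised the counts of DESeq2, of limma on depth and of the all-base-call scaling as well, and changed no call of a mismatch position by limma. Within the block, the counts were 161 and 242 without genes near the depth ceiling, 552 and 460 with DESeq2, 337 and 236 with limma, 391 and 85 scaled to all base calls, and 142 and 185 at positions with 100 reads. Scaling by all base calls shifted the median log2 fold change to -0.25 in mock. Without the block, DESeq2 called 123 and 120 genes, and scaling by all base calls 2 and 3. Leaving out a library gave 0 to 83 genes in mock, the highest without NAT10(-) replicate 2, and 0 to 24 with NaCNBH3, also highest without it; the lone library of an arm was then assumed to vary like the other genotype. The cause of these changes was not tested. Depth limits these results for mRNA, where few genes reached 30 reads at 50 positions, and the ceiling limits them for rRNA and abundant small RNAs.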
